A study of Mus musculus with 6 samples.

Results

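Chromatin accessibility was examined at 6 genes of the Myc and Lin28 families, Myc, Mycn, Mycl1 (the older symbol of Mycl), Max, Lin28a and Lin28b, out of 22367 protein-coding genes. The members were all ATAC-seq peaks that overlapped the interval from 20 kb before to 20 kb after each gene in the GENCODE M1 annotation of mm9. This rule found 72 peaks of the 125791 in the 3 deposited lists. Peaks of different lists that shared at least 1 bp were merged, which gave 33 regions of 65518 in all. A list that contributes a peak to a region is said to have the region.

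ATAC-seq marks accessible DNA by where the Tn5 transposase inserts sequencing adapters, and a peak is a stretch where such insertions accumulate. The 6 libraries came from J1 ESCs of strain 129SV and from the D-EPSCs and L-EPSCs converted from them, with 2 technical replicates per state. ESCs were kept in serum medium with LIF, the GSK3 inhibitor CHIR99021 and the MEK inhibitor PD0325901. D-EPSC medium, which has N2B27 and serum replacement, held LIF, CHIR99021, dimethindene maleate and minocycline hydrochloride. L-EPSC medium, which has serum replacement, held LIF, CHIR99021, PD0325901, the Src kinase inhibitor A-419259, the tankyrase inhibitor XAV939, JNK inhibitor VIII and the p38 inhibitor SB203580. LIF and CHIR99021 were thus present in all 3 states, and PD0325901 in ESCs and L-EPSCs. ESCs were grown on feeder cells or gelatin, and the EPSCs were free of feeders before the assay. All cells derive from a single line, and the culture medium and the cell state cannot be told apart.

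Each state has 1 peak list, with a start and an end per peak and no height, score or replicate value. The lists held 28965 peaks (ESC), 50225 (D-EPSC) and 46601 (L-EPSC), and the depth behind them is unknown here. No test between states could be made, so the values below describe these 3 lists, and a list without a peak at a gene had none called there at its own depth. Of 6 markers of pluripotent cells, 5 had a peak within 1 kb of a start in ESCs (all but Nanog, whose nearest ESC peak was 4259 bp away) and all 6 did in each EPSC list. Of 7 fibroblast markers, which feeder cells would carry, the ESC list had such a peak at 2 (Thy1 and Twist2), the D-EPSC list at 4 and the L-EPSC list at 1 (Col1a1), and Col3a1, Lum and Dcn had none in any list. The part of feeder cells in any value was not tested.

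Myc, Mycn and the L-Myc protein of Mycl1 are transcription factors of the basic helix-loop-helix leucine zipper type. Each pairs with Max, and the pair binds the E-box in DNA and favours genes of growth, metabolism and ribosome production. Lin28a and Lin28b are RNA-binding proteins that hold back the maturation of let-7 microRNAs. The let-7 microRNAs in turn lower the messenger RNAs of Myc genes, of Lin28 genes themselves and of fetal growth genes such as Hmga2. In pluripotent cells Myc acts downstream of LIF and Wnt signalling, and Lin28a is a widely used marker and reprogramming factor.

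Sequences are given first for some of the regions in which the lists differed in presence, width or placement, or that hold the E-box of the Myc and Max pair. Each is the part common to the lists named (for Mycn, common to D-EPSCs and L-EPSCs), without exons, cut to at most 300 bases around its middle, on mm9 and on the strand of the gene. Capitals mark exact matches, on either strand, to any of the 9 consensus sequences searched: the E-box CACGTG, the octamer ATGCAAAT, the SOX sequence CATTGTT, the TCF/LEF sequence CTTTGAT, the STAT sequence TTCCNGGAA, the ESRRB sequence TCAAGGTCA, the GC box GGGCGG, the TFAP2 sequence GCCNNNGGC and the ZFP281 sequence GGGGAGGGG. The regions shown were chosen after their values were seen.

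The first pair lies at Myc, upstream of the 5′ end (all 3 lists, chr15:61816628-61816927, plus strand) and in the gene body (both EPSC lists, no ESC peak, chr15:61818462-61818588, plus strand).
Myc, upstream: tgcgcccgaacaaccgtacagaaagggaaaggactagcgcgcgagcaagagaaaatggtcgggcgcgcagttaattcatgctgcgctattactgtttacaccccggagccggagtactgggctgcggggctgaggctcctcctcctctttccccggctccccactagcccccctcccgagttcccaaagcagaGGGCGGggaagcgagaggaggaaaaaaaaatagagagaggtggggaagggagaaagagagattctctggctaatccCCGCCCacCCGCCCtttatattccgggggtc
Myc, gene body: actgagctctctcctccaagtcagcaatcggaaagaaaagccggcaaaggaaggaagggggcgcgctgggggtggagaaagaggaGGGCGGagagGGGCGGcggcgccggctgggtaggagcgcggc

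At Mycn and Max the stretches lie upstream of the 5′ ends (chr12:12948935-12949234, minus strand, in D-EPSC and L-EPSC peaks but not in an ESC peak, and chr12:78063292-78063591, minus strand, in all 3 lists).
Mycn, upstream: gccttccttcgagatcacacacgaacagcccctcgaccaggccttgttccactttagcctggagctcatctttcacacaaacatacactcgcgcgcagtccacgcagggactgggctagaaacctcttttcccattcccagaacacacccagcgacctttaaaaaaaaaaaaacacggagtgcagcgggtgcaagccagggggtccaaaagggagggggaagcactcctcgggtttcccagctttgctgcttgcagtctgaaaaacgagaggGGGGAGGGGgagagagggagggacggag
Max, upstream: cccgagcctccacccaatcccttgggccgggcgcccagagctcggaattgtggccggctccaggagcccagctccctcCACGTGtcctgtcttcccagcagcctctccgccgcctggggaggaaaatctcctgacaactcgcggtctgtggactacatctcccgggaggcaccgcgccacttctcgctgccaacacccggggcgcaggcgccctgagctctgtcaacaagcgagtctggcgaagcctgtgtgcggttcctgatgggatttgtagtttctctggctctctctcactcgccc

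At the Lin28 genes the stretches are the upstream sequence of Lin28a that the peaks of all 3 lists have in common (chr4:133574757-133574996, minus strand), an intron of Lin28a (chr4:133573107-133573406, minus strand, both EPSC lists) and an intron of Lin28b (chr10:45166094-45166296, minus strand, both EPSC lists).
Lin28a, upstream: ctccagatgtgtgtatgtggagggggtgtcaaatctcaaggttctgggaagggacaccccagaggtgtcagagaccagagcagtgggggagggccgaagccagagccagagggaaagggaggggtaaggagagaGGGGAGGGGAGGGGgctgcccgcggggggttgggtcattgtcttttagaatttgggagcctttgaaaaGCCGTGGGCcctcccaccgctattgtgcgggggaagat
Lin28a, intron: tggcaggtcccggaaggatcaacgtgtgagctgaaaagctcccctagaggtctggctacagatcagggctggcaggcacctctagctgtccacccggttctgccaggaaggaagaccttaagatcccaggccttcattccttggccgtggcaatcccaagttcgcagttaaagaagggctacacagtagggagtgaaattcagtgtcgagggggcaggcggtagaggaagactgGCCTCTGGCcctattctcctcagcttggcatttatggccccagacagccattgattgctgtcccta
Lin28b, intron: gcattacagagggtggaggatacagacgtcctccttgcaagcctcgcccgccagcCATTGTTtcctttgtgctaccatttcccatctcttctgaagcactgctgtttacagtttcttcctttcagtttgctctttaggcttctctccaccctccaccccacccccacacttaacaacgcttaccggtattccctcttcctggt

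Peaks at the starts were present in nearly every case. In D-EPSCs and in L-EPSCs all 6 genes had a peak within 1 kb of an annotated start, and in ESCs 5 of 6 did, the exception being Mycn. Over all protein-coding genes the shares were 52.3% (ESC), 64.2% (D-EPSC) and 61.5% (L-EPSC), and 51.2% had a start peak in all 3 lists, as 5 of the 6 genes did. Mycn thus had a start peak in the EPSC lists but not in the ESC list, a pattern of 9.09% of all protein-coding genes. With starts taken within 2.5 kb, the ESC list also had a peak at Mycn, and so at all 6 genes. The 6 genes are few, and no more than this count is read from them.

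**Figure D1:**
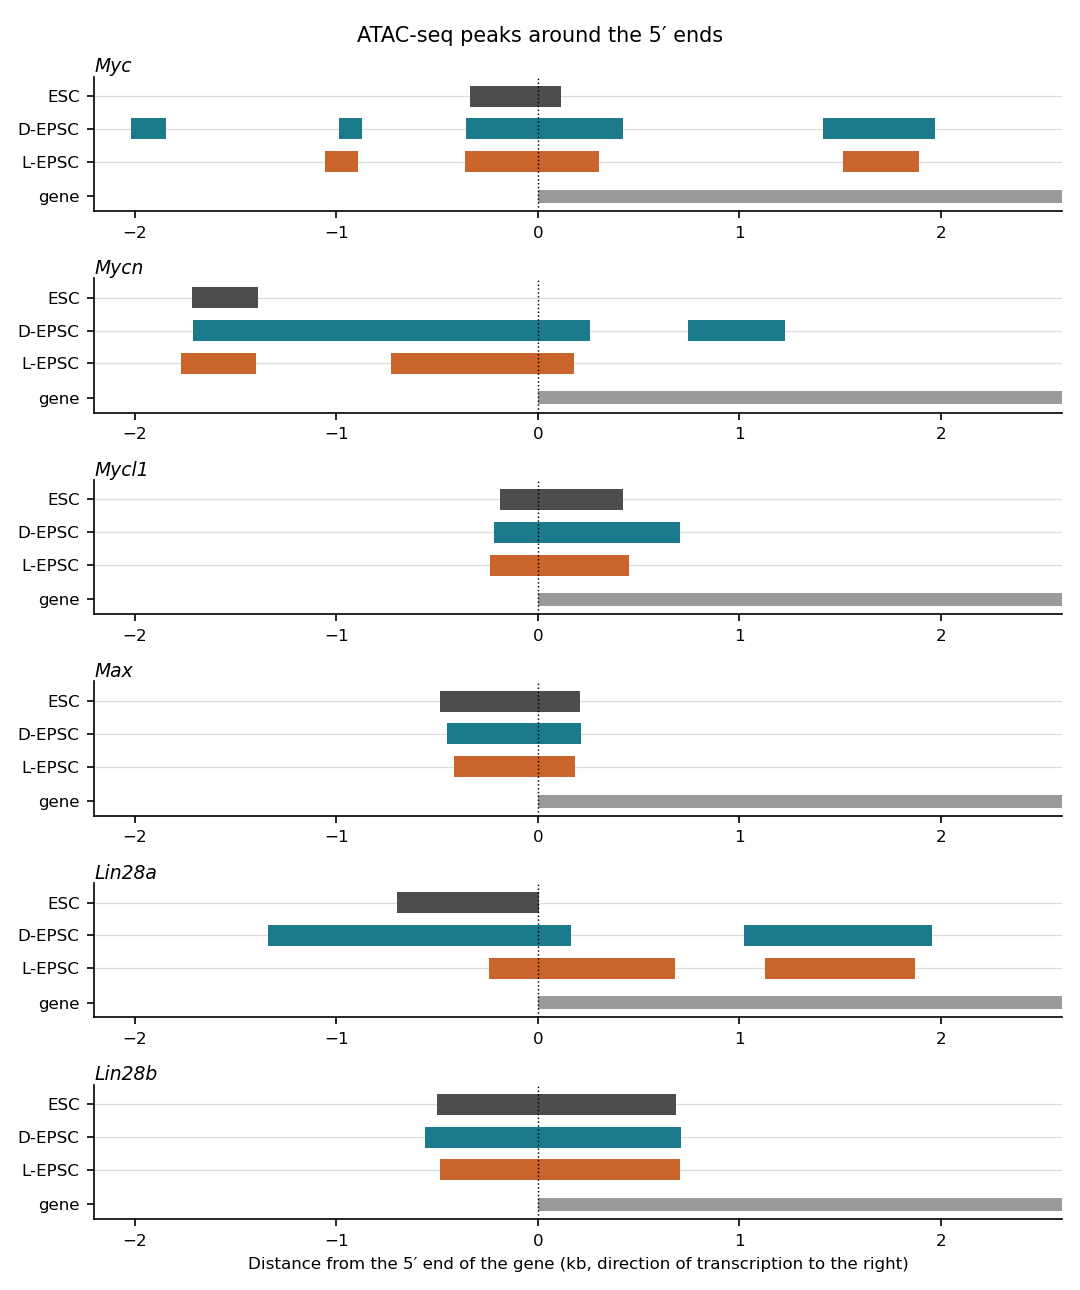
ATAC-seq peaks of the ESC, D-EPSC and L-EPSC lists (coloured bars) around the 5′ end of each gene (dotted line), with the gene in grey and distance in kb on the horizontal axis. At Mycn no ESC peak reaches the 5′ end, at Myc and Lin28a both EPSC lists have a further peak inside the gene, and at Max and Lin28b the bars of the 3 lists nearly coincide.

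Myc, the founding member of the family, lies on chr15:61816946-61821929 on the plus strand (ENSMUSG00000022346.8). Its window held 2 ESC peaks, 6 D-EPSC peaks and 4 L-EPSC peaks, in 6 regions. The peak over the 5′ end was 452 (ESC), 778 (D-EPSC) and 662 bp (L-EPSC) wide. Its upstream edges nearly coincided, at 334, 355 and 359 bp before the 5′ end in the 3 lists, whereas the downstream edge lay 117 (ESC), 422 (D-EPSC) and 302 bp (L-EPSC) into the gene. The wider EPSC peaks thus differed from the ESC peak almost wholly on the transcribed side.

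Inside Myc both EPSC lists had a peak that the ESC list lacked. It spanned chr15:61818360-61818918 (559 bp) in D-EPSCs and chr15:61818462-61818839 (378 bp) in L-EPSCs, and it began 1414 and 1516 bp from the 5′ end. It covers a further annotated start inside Myc, and its midpoint is annotated as UTR. The stretch printed above from its first part holds 2 GC boxes in a sequence of 66.9% GC. Upstream of Myc, both EPSC lists had narrow peaks about 1 kb before the 5′ end, 117 (D-EPSC) and 163 bp (L-EPSC) wide. A D-EPSC peak of 174 bp at 1846 bp before the 5′ end and another of 351 bp at 9575 bp after it had no counterpart. The remaining region, at -6332 bp (negative positions are upstream of the 5′ end), was found in all 3 lists, with widths of 172, 230 and 173 bp in ESCs, D-EPSCs and L-EPSCs.

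Mycn, the family member that is most prominent in embryonic and neural progenitors, lies on chr12:12942902-12948720 on the minus strand (ENSMUSG00000037169.8). Its window held 3 ESC, 5 D-EPSC and 4 L-EPSC peaks in 5 regions. No ESC peak touched the 5′ end, and the nearest was a peak of 331 bp whose closer edge lay 1386 bp upstream. The D-EPSC list had a single peak of 1970 bp, chr12:12948459-12950428, which ran from 1708 bp upstream to 261 bp into the gene. Only 0.187% of D-EPSC peaks were at least this wide. The L-EPSC list had 2 peaks over the same stretch, one of 908 bp over the 5′ end (from 729 bp upstream to 178 bp downstream) and another of 375 bp that overlaps most of the ESC peak.

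Merging joins these 4 peaks into 1 region counted as found in all 3 lists, although ESCs have only its upstream part. A further D-EPSC peak of 485 bp lay in an intron, 743 bp from the 5′ end, and had no counterpart. The remaining Mycn regions were alike in the 3 lists where they were shared. An intronic region 2837 bp from the 5′ end had widths of 181, 200 and 161 bp, and an intergenic region 14444 bp away, beyond the end of the gene, had widths of 505, 475 and 506 bp in ESCs, D-EPSCs and L-EPSCs. A D-EPSC peak of 450 bp, 21177 bp from the 5′ end, was found in that list only.

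Mycl1, which encodes L-Myc, lies on chr4:122672895-122679728 on the plus strand (ENSMUSG00000028654.7), and its window held 3 ESC, 4 D-EPSC and 6 L-EPSC peaks in 7 regions. The peak over the 5′ end was 616 (ESC), 925 (D-EPSC) and 690 bp (L-EPSC) wide. Both EPSC lists had a peak in the last part of the gene, with its midpoint in a UTR, 378 (D-EPSC) and 428 bp (L-EPSC) wide. Narrow L-EPSC peaks of 126, 121 and 166 bp lay between 10319 and 13597 bp upstream, and an ESC peak of 187 bp overlapped the last of them. A D-EPSC peak of 253 bp lay in an intron at the start of a non-coding transcript. The region found 20948 bp from the 5′ end in all 3 lists is the start of the neighbouring gene Trit1.

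**Figure D2:**
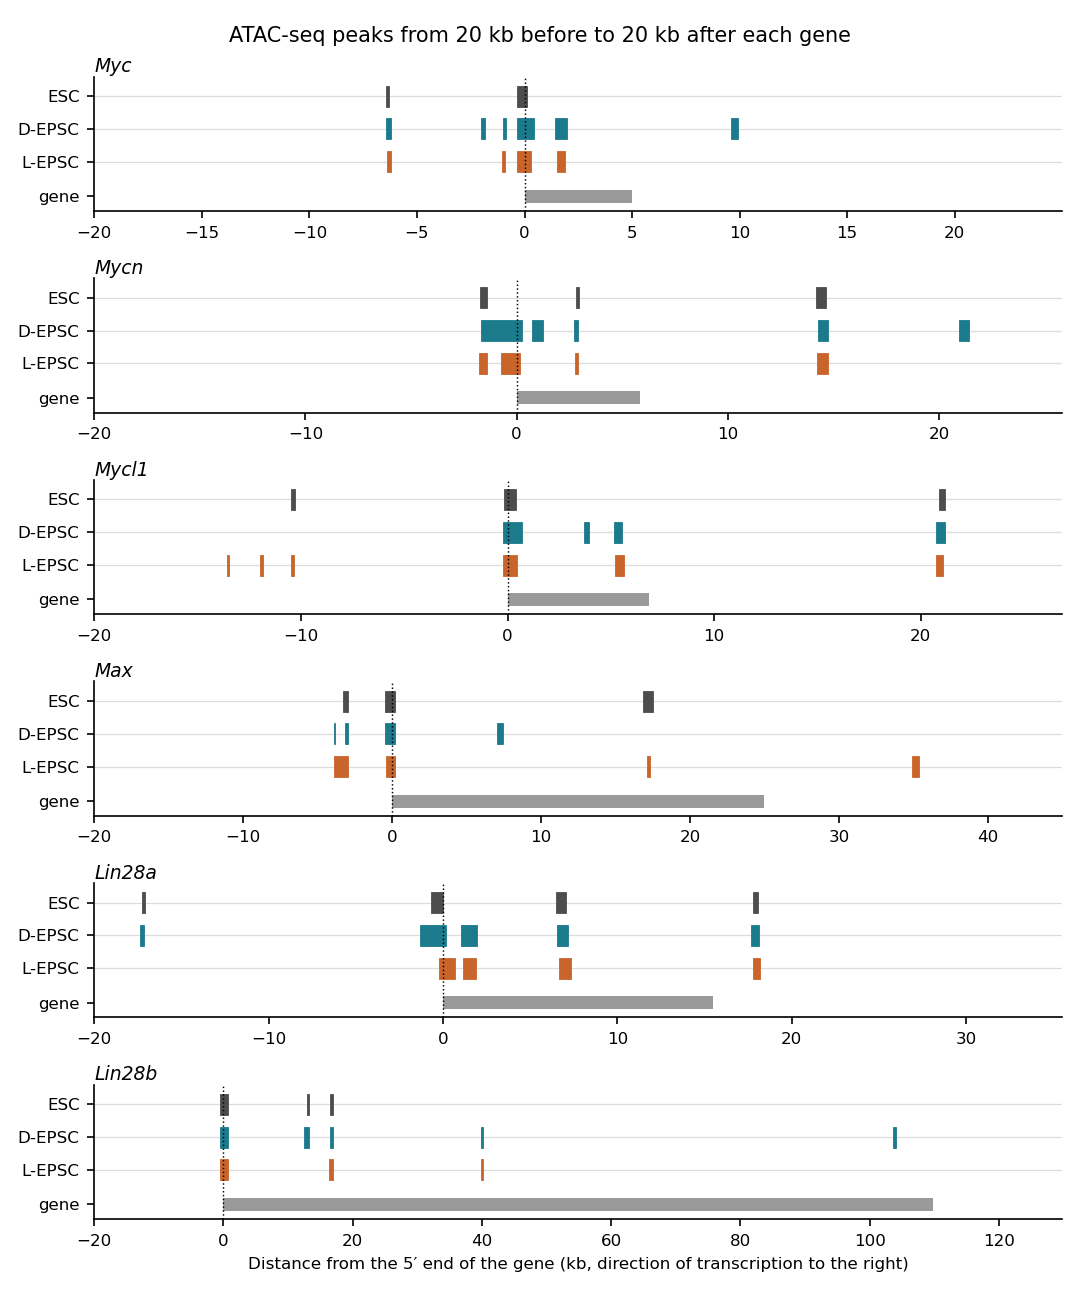
All peaks of the 3 lists (coloured bars, drawn with a thin outline that slightly widens the narrowest) from 20 kb before to 20 kb after each gene (grey bar), by distance from the 5′ end in kb; the horizontal scale differs between panels. Of the 33 regions, 14 have bars in all 3 rows and none has a bar in the ESC row alone.

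Max, the common partner of the Myc proteins, lies on chr12:78038256-78063235 on the minus strand (ENSMUSG00000059436.5). Its start peak was narrower in the EPSC lists than in ESCs, at 693 (ESC), 663 (D-EPSC) and 598 bp (L-EPSC). An E-box lies across its 5′ end (chr12:78063233-78063238) and another is centred at -275 bp (chr12:78063508-78063513), both inside the peaks of all 3 lists. About 3 kb upstream, the L-EPSC list had a peak of 935 bp where ESCs had 311 bp and D-EPSCs 2 peaks of 226 and 125 bp. In an intron 17188 bp from the 5′ end, ESCs had a peak of 639 bp and L-EPSCs of 236 bp, and D-EPSCs had none. A D-EPSC peak of 399 bp in another intron and an L-EPSC peak of 473 bp beyond the end of the gene had no counterpart. The former holds the only octamer match in the 400 bp searched around the midpoint of each of the 33 regions.

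Lin28a lies on chr4:133559245-133574756 on the minus strand (ENSMUSG00000050966.2), with the antisense lincRNA gene Gm13061 over its 5′ end. Its window held 4 ESC, 5 D-EPSC and 4 L-EPSC peaks in 5 regions. The start peaks of the 3 lists were placed differently. In ESCs the peak of 705 bp lay almost wholly upstream, from 698 bp before to 6 bp after the 5′ end. In D-EPSCs the peak of 1503 bp ran from 1336 bp before to 166 bp after it, and in L-EPSCs the peak of 923 bp ran from 240 bp before to 682 bp after it. The stretch common to all 3 was 247 bp, and it includes the upstream sequence printed above with its 2 overlapping ZFP281 matches and its TFAP2 match.

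Within Lin28a, both EPSC lists had a wide peak in an intron, within 1 kb of a start of Gm13061, that ESCs lacked. It was 929 bp in D-EPSCs (chr4:133572803-133573731) and 748 bp in L-EPSCs (chr4:133572884-133573631), and it began 1025 and 1125 bp from the 5′ end. It was the widest region of both EPSC lists only among the 6 genes, and at 929 bp it stood above the median of 408 bp over all such regions. A second intronic region, 6908 bp from the 5′ end, was found in all 3 lists at similar widths of 546, 625 and 688 bp. The region 17920 bp from the 5′ end is the start of the neighbouring gene Dhdds, and a distal region at -17246 bp was found in ESCs (168 bp) and D-EPSCs (235 bp).

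Lin28b, the paralogue of Lin28a, lies on chr10:45096426-45206201 on the minus strand (ENSMUSG00000063804.6) and is by far the longest of the 6 genes, at 109776 bp. Its start had the widest ESC peak of the 6 genes, and the 3 lists nearly coincided there, at 1185 (ESC), 1270 (D-EPSC) and 1190 bp (L-EPSC). This region was the richest in GC of the 33, at 75.4%. A region of all 3 lists with its midpoint 16679 bp from the 5′ end, within 1 kb of an inner annotated start, had widths of 474, 469 and 625 bp. An intronic region was found in ESCs (286 bp) and D-EPSCs (748 bp) only, with 219 bp in common, and another, 40025 bp from the 5′ end, in D-EPSCs (325 bp) and L-EPSCs (203 bp) only. The latter is the region printed above with a SOX match. A D-EPSC peak of 359 bp lay 103862 bp from the 5′ end, near the end of the gene.

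Widths at the 5′ ends were next set beside those of all genes, as bases covered by peaks within 1 kb on either side of the 5′ end. Of the 5 genes with such bases in ESCs, 3 had at least 1.5 times as many in D-EPSCs, namely Myc (1.98 times), Lin28a (1.66) and Mycl1 (1.5). The ratios of Lin28b and Max were 1.07 and 0.957. In L-EPSCs 1 of 5 reached 1.5 times, Myc at 1.7, and the others were at 1.31 (Lin28a), 1.12 (Mycl1), 1.0 (Lin28b) and 0.863 (Max). Over all protein-coding genes with bases in both lists, 39.9% reached 1.5 times in D-EPSCs and 35% in L-EPSCs, with median ratios of 1.34 and 1.27. Such ratios were thus common in these lists. Mycn, with 0 bases in ESCs, had 1520 (D-EPSC) and 908 (L-EPSC).

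The 33 regions were then grouped by the lists that have them. All 3 lists had 14 regions (42.4%, against 33.2% of all regions), and both EPSC lists only had 5 (15.2%, against 18.4%). D-EPSCs only had 7 (21.2%, against 22.3%) and L-EPSCs only 3 (9.09%, against 15.8%). ESCs only had none, against 5.12% of all regions. Counts this small moved with the settings: reciprocal overlap of 50% between peaks gave 11 regions of D-EPSCs only, 7 of L-EPSCs only and 3 of ESCs only, and a window of 10 kb gave 1 of L-EPSCs only. Regions of ESCs and D-EPSCs alone numbered 2, as did those of ESCs and L-EPSCs alone (6.06% each, against 2.3% and 2.92% of all regions). At least 1 region of both EPSC lists only was found at Myc (2 regions), Mycl1, Lin28a and Lin28b, 4 of 6 genes, and in the windows of 43.9% of all protein-coding genes.

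**Figure D3:**
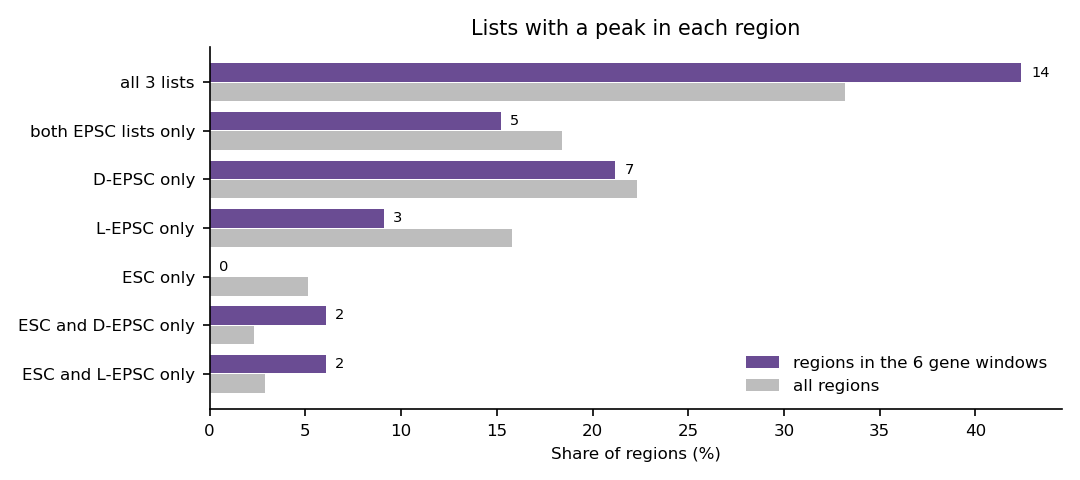
Share of regions, in %, found in each combination of lists, for the 33 regions at the 6 genes (purple, with the number of regions beside each bar) and for all 65518 regions (grey). Regions of all 3 lists are the most frequent in both, and the purple bar for ESCs only is at 0.

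Of the 33 regions, 11 lay within 1 kb of a start of their own gene and 22 did not, 2 of which are the starts of Trit1 and Dhdds. The 11 start regions were wider (median 698 against 409 bp) and richer in GC (median 59.5 against 50.8%). In the 14 regions of all 3 lists, peaks covered more bases in D-EPSCs than in ESCs in 11 and more in L-EPSCs than in ESCs in 12, with median ratios of 1.24 and 1.23. Over all such regions these shares were 72.1% and 70.2%, with median ratios of 1.26 and 1.22.

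Coverage of the whole windows differed between the genes. At Myc, peaks covered 624 (ESC), 2209 (D-EPSC) and 1376 (L-EPSC) bases, which is 13.9, 49.1 and 30.6 bases per kb of window. At Mycn they covered 1017, 3580 and 1950 bases, or 22.2, 78.1 and 42.6 per kb. These were the genes with the highest ratios of D-EPSC to ESC coverage, 3.54 for Myc and 3.52 for Mycn. Lin28a followed with 1711, 3753 and 2769 bases and a ratio of 2.19, and then Mycl1 (1.81) and Lin28b (1.63). Max was the only one of the 6 with less coverage in D-EPSCs than in ESCs, with 1643, 1413 and 2242 bases. In all 6 genes L-EPSC coverage was above that of ESCs, by ratios between 1.04 (Lin28b) and 2.21 (Myc). Of all 16798 protein-coding genes with covered bases in ESCs, 88.3% had more in D-EPSCs and 84.8% more in L-EPSCs, with median ratios of 1.73 and 1.56. A ratio as high as that of Myc was found in 11.5% of them for D-EPSCs and in 24.5% for L-EPSCs, and one as high as that of Mycn in 11.7% and 33.4%.

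**Figure D4:**
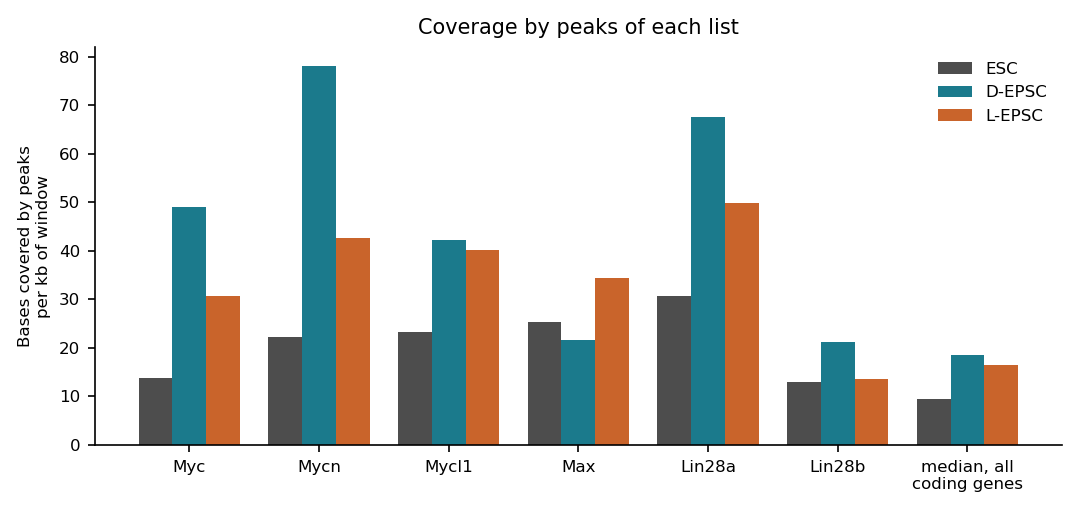
Bases covered by peaks per kb of window (gene with 20 kb on either side) in the ESC, D-EPSC and L-EPSC lists, for the 6 genes and, at the right, the median over all 22367 protein-coding genes; there is 1 value per list and no error. D-EPSC bars are the highest at every gene but Max, where the L-EPSC bar is.

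Summed over the 6 windows, peaks covered 8029 (ESC), 16101 (D-EPSC) and 12231 (L-EPSC) bases. The D-EPSC sum was 2.01 times and the L-EPSC sum 1.52 times that of ESCs, beside 1.86 and 1.67 times for the whole lists. Peak numbers were 18, 29 and 25, or 1.61 and 1.39 times the ESC number, beside 1.73 and 1.61 for the whole lists. The order of the EPSC lists depended on the window. With 50 kb on either side the sums were 12939 (ESC), 23507 (D-EPSC) and 22428 (L-EPSC) bases, with 44 D-EPSC and 47 L-EPSC peaks. Per kb, the 6 windows as a whole were covered by 19.7 (ESC), 39.5 (D-EPSC) and 30.0 (L-EPSC) bases, where the median single protein-coding gene had 9.43, 18.5 and 16.5. Each of the 6 genes was above that median in each list, except Lin28b in L-EPSCs (13.5 bases per kb). The densest were Mycn and Lin28a in D-EPSCs, and 2.39% and 4.47% of all protein-coding genes had at least as many bases per kb in that list.

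Since the lists differ in length, each was also limited to its 28965 widest peaks, the number in the ESC list. Then only D-EPSC peaks of at least 309 bp and L-EPSC peaks of at least 279 bp stayed in. All 18 ESC peaks, 21 of 29 D-EPSC peaks and 17 of 25 L-EPSC peaks at these genes were among them. Of the 5 regions of both EPSC lists only, 3 were still such regions, the ones inside Myc, Mycl1 and Lin28a. The narrow peaks about 1 kb upstream of Myc were lost in both lists, and the L-EPSC peak of the Lin28b intron was lost. The start peaks of Mycn stayed in for both EPSC lists. Regions of all 3 lists numbered 11 in place of 14. This setting removes narrow peaks from the EPSC lists but none from the ESC list, whose narrowest peak is 128 bp. By that construction 5 regions with an ESC peak were left with no EPSC peak, and each of them overlaps an EPSC peak of 161 to 236 bp in the lists as deposited.

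Exact consensus sequences were counted in 400 bp around the midpoint of each region, which are not the same intervals as the stretches printed above. The E-box CACGTG was found in 5 of 33 regions (15.2%), against 8.01% of all regions. These were the starts of Max, Lin28a and Lin28b, the start of Dhdds in the Lin28a window, and the Mycl1 region of ESCs and L-EPSCs, where the match lay just outside the peaks. At Lin28a the E-box was centred at -369 bp, inside the ESC and D-EPSC peaks and outside the L-EPSC peak. At Lin28b it was centred 239 bp into the gene, inside all 3 peaks. In the start regions of Myc, Mycn and Mycl1 no E-box was in the 400 bp. At Mycn and Mycl1 this stretch, centred at -754 and 235 bp from the 5′ end, did not include the 5′ end itself.

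The GC box was the most frequent, in 14 regions (42.4%, against 30.9% of all regions). Of its matches, 3 lay just upstream of Myc, centred at -123, -47 and -39 bp, as printed above. The ZFP281 sequence was in 6 regions (18.2%, against 7.84%), and the TFAP2 sequence in 6 (18.2%, against 20.2%). The ZFP281 and TFAP2 matches printed upstream of Mycn and Lin28a lie outside the 400 bp and are not in these counts. Of the ZFP281 matches counted, those of the Mycn intron region at 2837 bp and of the D-EPSC region in a Mycl1 intron were not wholly inside a peak. The SOX sequence was in 2 regions (against 5.53% of all), and the octamer (2.85%) and the TCF/LEF sequence (4.87%) in 1 each. The STAT (1.51%) and ESRRB (1.47%) sequences were in none of the 33. Of 46 matches in all, 41 lay inside a peak, and 0 pairs of different motifs overlapped. Base composition was not adjusted for, and a match is not evidence of binding.

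The other genes of the Myc and let-7 pathways were taken as a list of 44, of which 42 were in the annotation (Mirlet7e and Mirlet7f-1 were not found under these names). Of these, 31 (ESC), 34 (D-EPSC) and 35 (L-EPSC) had a start peak, and 30 had one in every list. Without the let-7 genes, which are hairpins and not protein-coding, 34 genes remained, and 88.2 (ESC), 97.1 (D-EPSC) and 97.1% (L-EPSC) of them had a start peak, beside 52.3, 64.2 and 61.5% of all protein-coding genes, of which 51.2% had one in every list. All 9 Myc cofactors and turnover genes (such as Trrap and Ruvbl1, of chromatin complexes that Myc recruits, and Fbxw7, which marks Myc for degradation) and all 6 genes of let-7 processing and decay (among them Drosha and Dicer1, which cut microRNA precursors, and Dis3l2, which degrades them) had a start peak in every list. Of the 11 genes of the Max network, 9 had one in every list. The groups are small, and beside the 51.2% of all genes nothing particular to them is read from these counts. The exceptions were Mlx, a partner of glucose-sensing factors, with start peaks of 301 (D-EPSC) and 786 bp (L-EPSC), while no ESC peak lay closer than 4388 bp, and Mycs, with none in any list.

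Among 8 let-7 targets and Lin28 partners, 6 had a start peak in every list and 2 in the EPSC lists only. The 2 were Trim71, a let-7 target that controls proliferation, with 1289 (D-EPSC) and 902 bp (L-EPSC), and Igf2bp3, an RNA-binding protein of fetal tissue, with 975 and 726 bp. The nearest ESC peaks were 7057 and 2898 bp away. In all, 3 of the 34 genes (8.82%) had this pattern, close to the 9.09% of all protein-coding genes given above for Mycn.

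A let-7 gene had it too. Peaks of 1217 (D-EPSC) and 1104 bp (L-EPSC) covered the start of the Mirlet7i hairpin, while no ESC peak lay closer than 72481 bp. Mirlet7g had a peak in ESCs (285 bp, 662 bp from its start) and L-EPSCs (315 bp, 612 bp away), with the nearest D-EPSC peak 7270 bp away. The other 6 let-7 genes found, Mirlet7a-1, Mirlet7b, Mirlet7c-1, Mirlet7c-2, Mirlet7d and Mirlet7f-2, had no peak within 1 kb in any list. The annotation gives the hairpin of these genes, not the start of the longer primary transcript. The mature sequences of the pair with peaks, from RefSeq on GRCm38.p6, share the let-7 seed (bases 2 to 8, in capitals). They are the products whose maturation Lin28 proteins hold back, and the precursors are not shown.
let-7g-5p: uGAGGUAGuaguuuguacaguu
let-7i-5p: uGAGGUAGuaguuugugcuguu

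**Figure D5:**
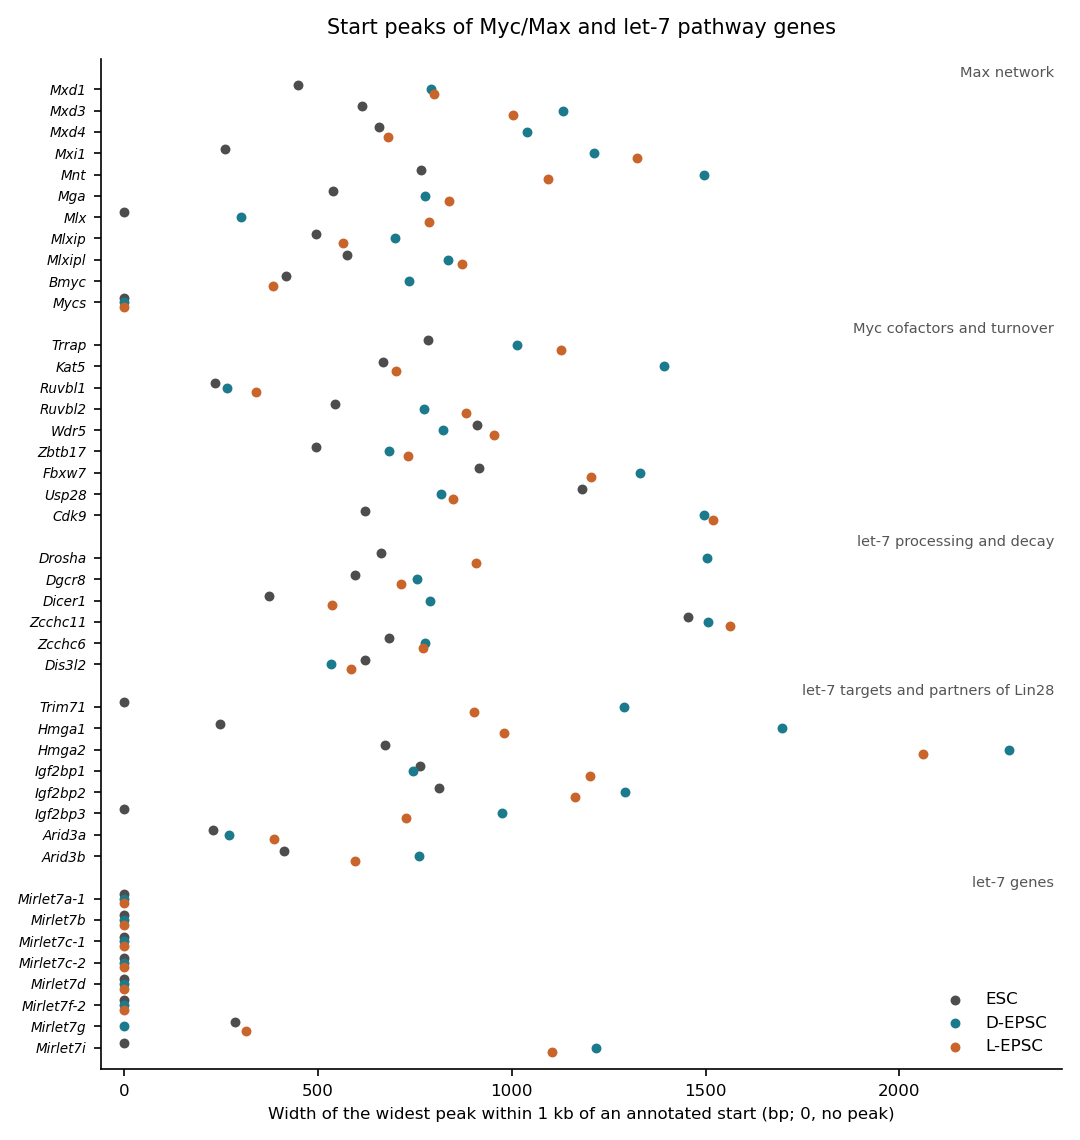
Width in bp of the widest peak within 1 kb of an annotated start in the ESC, D-EPSC and L-EPSC lists, for the 42 pathway genes found in the annotation; points at 0 have no such peak. Most EPSC points lie to the right of the ESC point of the same gene, Hmga2 in D-EPSCs is farthest right at 2284 bp, and most let-7 genes are at 0.

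Where all 3 lists had a start peak, the widest was wider in D-EPSCs than in ESCs for 26 of the 30 pathway genes, the exceptions being Wdr5, Usp28, Dis3l2 and Igf2bp1. It was wider in L-EPSCs for 27, all but Bmyc, Usp28 and Dis3l2. Over all protein-coding genes with a start peak in every list these shares were 82.8% and 77.3%. The median widths over the 30 genes were 617.5, 819.5 and 859.5 bp in ESCs, D-EPSCs and L-EPSCs, beside 547, 789 and 741.5 bp over all such genes. Hmga2, a chromatin protein of embryonic tissue and a classic let-7 target, had 673, 2284 and 2062 bp, and Mxi1, a repressor that competes with Myc for Max, had 260, 1211 and 1323 bp. Both were picked as examples after their values were seen.

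Other genes with the same make-up of windows were looked for among all protein-coding genes, by the number of regions of each of the 7 classes and then by the distance of log2 covered bases (with 100 bases added) over the 3 lists. For Myc, 51 genes had the same 7 numbers, the closest being Ccin and Ankrd46 (distances 0.174 and 0.209). For Mycn there were 55, led by Clpx and 2900092E17Rik (0.101 and 0.251). Fewer genes matched Mycl1 (5, led by Osbpl11 and Pfkm, 0.412 and 0.567) and Max (12, led by Cd38 and Selenbp1, 0.232 and 0.482). The same held for Lin28a (6, led by Ccdc107 and E130306D19Rik, both 0.544) and Lin28b (13, led by Slc24a1 and 4933427D14Rik, 0.448 and 0.517). Ccdc107 and E130306D19Rik had the same covered bases in every list (2256, 2913 and 2463), so they may not be separate examples.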

How the data were processed

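Per the study's methods and the submitters' processing notes, the authors aligned paired ATAC-seq reads to mm9 with Bowtie2 2.3.5, kept properly paired reads (SAMtools 1.10) and used the default settings of MACS to call peaks. How replicates were combined, and whether duplicates were removed or cut sites shifted for the transposase, is not given in the sources used here. Without a shift, edges of peaks would be off by a few bases, and depth and duplicates would change how many narrow peaks pass the caller. The deposited files are 1 list of peak starts and ends (in bp) per state, with no counts, so depth is unknown and no interval or test over replicates was possible.

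Sequence and genes came from NCBIM37, the assembly of mm9, with GENCODE M1. Only the autosomes, X and Y were analysed. Regions are peaks of different lists joined by at least 1 bp. Values over all genes used 22367 protein-coding genes, with the starts of all their transcripts. Genes named were the 6 members, pathway genes without a start peak in every list and the 2 most alike genes of each member, with further pathway genes named as examples of a group, as exceptions to a count or after their values were seen. The members and lists were chosen with earlier results of these data known. Motifs were searched without mismatch on both strands. At the edge of the windows, the farthest peak inside lay 17146 bp from its gene (Lin28a, D-EPSC, 235 bp wide) and the nearest outside 20129 bp (Lin28a, ESC, 194 bp wide). Alternatives changed the window, the lists, the overlap and the distance to starts.

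The tools were pandas 2.3.3, numpy 2.4.6, pysam 0.24.0 and matplotlib 3.10.9 under Python 3.11.15. Merging, window counts and motif search were tested on simulated data, the first 2 against bedtools 2.31.1.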

Additional observations from a re-analysis of the deposited data

How the results depend on the processing

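No paired analysis was possible because a state has 1 deposited list and no value per replicate, so there was also no replicate to leave out. Of 100 recomputed values, 72 stayed within 1.5 times the value given and 28 did not. Start peaks kept their count within 1.5 times under every alternative run for them, but within 2.5 kb all 6 genes had an ESC start peak, as the ESC peak upstream of Mycn is then counted. Merging with 100 bp of overlap, the common minimum width of 128 bp and counting by midpoint moved no count beyond 1.5 times.

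A window of 50 kb, larger by construction, gave 30 ESC, 44 D-EPSC and 47 L-EPSC peaks, 12939 covered bases in ESCs and 22428 in L-EPSCs, and 22 regions of all 3 lists, 11 of both EPSC lists only, 7 of L-EPSCs only, 1 of ESCs only and 5 of ESCs and L-EPSCs only, so that D-EPSCs no longer had the most peaks. A window of 10 kb gave 1 region each of L-EPSCs only, ESCs and D-EPSCs only, and ESCs and L-EPSCs only. The widest 50% of each list gave 9 ESC, 18 D-EPSC and 16 L-EPSC peaks, 8 regions of all 3 lists, 1 of ESCs only, and 0 of ESCs with either EPSC list alone. With the 28965 widest peaks of each list there were 3 regions of both EPSC lists only, 1 of L-EPSCs only, 5 of ESCs only, and 1 of ESCs with either EPSC list alone. Shortened lists hold fewer peaks by construction, and in the latter the 5 regions of ESCs only each overlap a narrow EPSC peak that was removed. Reciprocal overlap of 50% gave 11 regions of D-EPSCs only, 7 of L-EPSCs only and 3 of ESCs only. Regions of ESCs only thus stayed at 0 with the 10 kb window, the common minimum width and merging by 100 bp, and appeared with the 50 kb window, both lists of widest peaks and reciprocal overlap. As depth is unknown, a missing peak says only that none was called.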
